A study of Mus musculus with 4 samples.

Results

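Group 2 innate lymphoid cells (ILC2s) reside in tissues such as the lung, carry no antigen receptor and secrete cytokines when the epithelium is damaged. In this series, ILC2s from C57BL/6 mouse lungs were cultured for 6 h with IL-33 plus Ang II (angiotensin II, a peptide hormone that raises blood pressure), or with IL-33 alone, the alarmin that activates these cells and that both groups received. Each group has 2 libraries made from amplified cDNA of 500 cells per sample, and the deposited values are FPKM (fragment numbers divided by the length of the transcript and by the mapped fragments of the library). The genes described here are the 10 of arginine breakdown and of polyamine synthesis and its control (Arg1, Arg2, Ass1, Odc1, Oaz1, Azin1, Srm, Sms, Sat1 and Amd1). They were taken as the rows that carry these names, of 55401 gene models in all. Each name matched 1 row.

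Arginase splits arginine into urea and ornithine, and ornithine decarboxylase (Odc1) turns ornithine into putrescine, the first polyamine. S-adenosylmethionine decarboxylase (Amd1) supplies the aminopropyl groups with which spermidine synthase (Srm) and spermine synthase (Sms) extend putrescine to spermidine and spermine. Antizyme (Oaz1) sends ornithine decarboxylase to the proteasome, antizyme inhibitor (Azin1) captures antizyme, and spermidine/spermine acetyltransferase (Sat1) starts polyamine breakdown and export. Argininosuccinate synthase (Ass1) acts on the other side of the cycle and rebuilds arginine from citrulline. Lung ILC2s of mice are known to contain arginase 1 already at rest, and polyamines are known for their part in growth and in the translation of some mRNAs.

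The 3 genes that complete spermidine and spermine, Amd1, Srm and Sms, were lower in both Ang II libraries than in both IL-33 libraries. Odc1 was also lower in both, by a smaller margin. Ass1 and Sat1 were higher in both. Arg1, Oaz1 and Azin1 lay on either side of the IL-33 values, and Arg2 was listed at 0 throughout. None of these differences passed an adjusted p of 0.05, in a test whose spread comes from the Ang II pair.

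Over the 9215 genes that averaged 1 FPKM or more, levels as log2(FPKM + 1) correlated at Pearson r = 0.994 between the IL-33 libraries, at 0.568 between the Ang II libraries and at 0.555 to 0.567 between groups, across genes, which are not independent replicates. The median absolute difference between libraries was 1.22 (log2) for the Ang II pair and 0.0509 for the IL-33 pair. The libraries' FPKM totals lay between 394808 and 431014. Sequencing depth is unknown, since no counts are given. Summed FPKM of 12 ILC2 markers, led by Id2 and Icos, were 2009 and 2149 with Ang II and 1743 and 1749 with IL-33. In both Ang II libraries 4 were higher and 0 lower, beside 24.4% and 33.5% of all tested genes. Areg, among these 4, stood at 217 and 344 FPKM with Ang II and at 7.38 and 7.51 FPKM with IL-33. Most of the gap between the sums lies in Areg, while Id2 and Icos overlapped between groups. Of the 12 ILC2 markers, 10 reached 1 FPKM in every library. Thy1 stood at 0.09 and 0.03 FPKM with Ang II and at 0 and 0.04 FPKM with IL-33. Kit stood at 6.26 and 0.01 FPKM with Ang II and at 6.17 and 5.75 FPKM with IL-33. Of 9 T cell markers, 8 were lower and 0 higher in both Ang II libraries. Their summed FPKM were 926 and 455 with Ang II and 1263 and 1260 with IL-33, led by Trbc2 and Trbc1. Those of neutrophil markers, led by S100a8 and S100a9, were 62 and 39 with Ang II and 209 and 201 with IL-33. Red blood cell genes, led by Hba-a2 and Hba-a1, summed to 3831 and 1592 FPKM with Ang II and to 25146 and 24943 FPKM with IL-33. Epithelial and stromal genes, led by Scgb1a1 and Sftpc, summed to 82 and 199 FPKM with Ang II and to 357 and 347 FPKM with IL-33.

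Since the IL-33 libraries differed by far less than the Ang II libraries, they were averaged and entered the test as 1 sample against 2. Nothing in the labels ties the samples to different mice or cultures. The p-values therefore measure only the spread between these samples, possibly a technical one, and the IL-33 sample is assumed to vary like the Ang II pair.

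**Figure D1:**
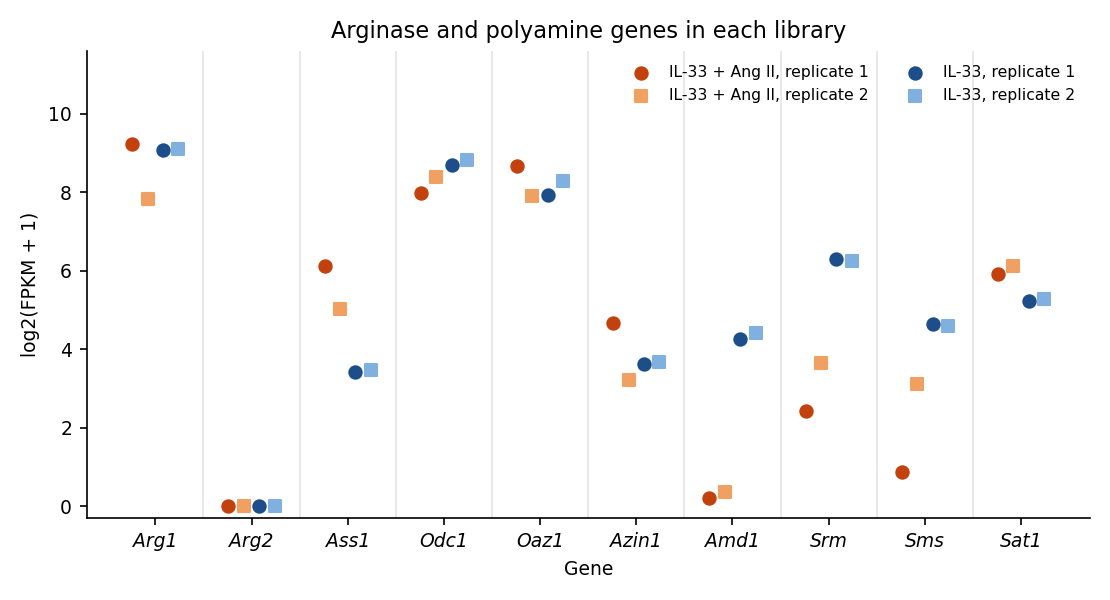
Level of each of the 10 genes in every library, as log2(FPKM + 1), with Ang II libraries in orange and IL-33 libraries in blue; circles are replicate 1 and squares replicate 2. Amd1, Srm and Sms lie lower in both Ang II libraries, Ass1 and Sat1 higher, and Arg2 at 0 in all 4.

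Arg1 (chromosome 10, 24915221 to 24927484, minus strand, mm10) encodes the cytosolic arginase. Its level was 602 and 225 FPKM with Ang II and 533 and 542 FPKM with IL-33. One Ang II library was thus above both IL-33 values and the other below them, and the difference of -0.54 (log2, SE 0.92, adjusted p = 0.815 by limma) was smaller than the spread between the Ang II libraries. Among all genes above 0 in a library, Arg1 ranked at percentile 99.1 and 97.9 with Ang II and at 99.2 in both IL-33 libraries, so it was one of the abundant transcripts in every one of them. In bulk libraries, fewer cells of a type and less RNA per cell cannot be told apart.

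Arg1 is also made by macrophages, and 14 markers of macrophages, monocytes and dendritic cells were read beside it. Their summed FPKM were 2294 and 1209 with Ang II and 2324 and 2283 with IL-33, so the Ang II library with the lowest Arg1 also had the lowest sum. That library likewise had the lowest sums of T cell, neutrophil and red blood cell genes, given above. It did not have the lowest sum of ILC2 markers or of epithelial and stromal genes. Counting genes outside the IL-33 values in both Ang II libraries, 3 of the 14 lay above and 4 below. Among all tested genes 24.4% lay above and 33.5% below, so these counts do not set the list apart. Itgax and Retnla were listed at 0 in all 4 libraries. Lyz2, which encodes lysozyme, led the list with 1016 and 683 FPKM with Ang II and 1700 and 1668 FPKM with IL-33. Chil3, a gene of alveolar macrophages, stood at 696 and 158 FPKM with Ang II and at 212 and 210 FPKM with IL-33. The sums hide opposite directions. Marco stood at 191 and 23.2 FPKM with Ang II and at 0 in each IL-33 library. Adgre1 stood at 0.06 and 0.04 FPKM with Ang II and at 24.2 and 23.6 FPKM with IL-33. The part of these cells in the Arg1 values was not tested.

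The genes whose pattern over the 4 libraries was most like that of Arg1, among 2416 named genes averaging 20 FPKM or more, were Rps27l, Stat3 and Sh2b1. Likeness was the Euclidean distance of log2(FPKM + 1) centred on each gene's mean (0.028, 0.048 and 0.070). Stat3, which encodes a transcription factor of cytokine receptors, stood at 56.9 and 21.2 FPKM with Ang II and at 48.9 and 51.3 FPKM with IL-33. With so few libraries, many genes can share such a pattern.

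Arg2 (chromosome 12, 79130777 to 79156301, plus strand), which encodes the mitochondrial arginase, was listed at 0 in all 4 libraries and was not tested. A value of 0 here does not show that the transcript was absent. Its last exons overlap Vti1b, a vesicle fusion gene on the opposite strand, over 285 exon bases. Vti1b stood at 148 and 97.5 FPKM with Ang II and at 35.2 and 35.8 FPKM with IL-33. No source used here states that fragments were counted by strand.

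Ass1 (chromosome 2, 31470207 to 31520672, plus strand) stood at 68.6 and 31.2 FPKM with Ang II, against 9.71 and 9.97 FPKM with IL-33. The groups did not overlap, and the Ang II libraries were 6.97-fold and 3.17-fold above the IL-33 mean. On the log2(FPKM + 1) scale, where changes of low genes come out too small, the difference was 2.13 (SE 0.79, adjusted p = 0.600 by limma). Of all tested genes, 9.96% had a larger positive difference. Of 612 genes between 8 and 12 FPKM in both IL-33 libraries, 23 (3.76%) were above 30 FPKM in both Ang II libraries, as Ass1 was. These limits were set around the values of Ass1 after they had been seen, so the share is a description.

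The coding part of Ass1 has a processed pseudogene copy, Gm5424 (chromosome 10, 62071123 to 62072362, plus strand), which matches it at 1233 of 1239 bases. Both stretches below are from GENCODE transcripts and are shown to show how few bases tell gene and copy apart. They run from base 354 to 443 of the Ass1 coding part, and capitals mark the bases that differ.
Ass1: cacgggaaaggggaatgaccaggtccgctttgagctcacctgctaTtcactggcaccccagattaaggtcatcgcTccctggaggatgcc
Gm5424: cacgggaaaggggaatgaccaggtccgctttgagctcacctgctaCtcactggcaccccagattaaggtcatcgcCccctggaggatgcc

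Gm5424 was listed at 37.3 and 23.8 FPKM with Ang II and at 9.09 and 10.4 FPKM with IL-33, close to Ass1 itself in the IL-33 libraries. The sum of the pair was 106 and 55.0 FPKM with Ang II and 18.8 and 20.4 FPKM with IL-33. The level of Ass1 alone is therefore uncertain, while gene and copy were both higher in both Ang II libraries.

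Asl, which encodes the next enzyme of arginine rebuilding and was read from a wider list of 57 pathway genes, stood at 18.01 and 20.96 FPKM with Ang II and at 20.91 and 19.53 FPKM with IL-33. Its groups overlapped, and its difference was -0.05 (log2, SE 0.42).

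Odc1 (chromosome 12, 17544794 to 17551505, plus strand), the entry enzyme of polyamine synthesis, stood at 250 and 333 FPKM with Ang II and at 409 and 452 FPKM with IL-33. Both Ang II libraries were below both IL-33 libraries, at 58.1% and 77.2% of the IL-33 mean. The difference was -0.58 (log2, SE 0.31, adjusted p = 0.775 by limma). GENCODE holds 14 gene models elsewhere in the genome, some overlapping each other, that match Odc1 at 90% identity or more over at least 200 bases. Their summed FPKM were 21.4 and 30.3 with Ang II and 43.5 and 49.7 with IL-33. The genes most like Odc1 in pattern were Ccndbp1, Eif4g2 and Dda1 (distances 0.066, 0.068 and 0.090).

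Oaz1 (chromosome 10, 80826656 to 80829290, plus strand) stood at 401 and 237 FPKM with Ang II and at 243 and 311 FPKM with IL-33. The groups overlapped, and the difference was 0.16 (log2, SE 0.51, adjusted p = 0.898 by limma). The IL-33 libraries also differed from each other here, by 0.36 (log2).

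Antizyme is made only when ribosomes skip the first base of a stop codon in its mRNA, a frameshift that polyamines promote. The site is shown because the annotation writes it in 2 ways that differ by that base. The stretches are from GENCODE transcripts of Oaz1, and capitals mark the stop codon of the first frame, which the joined form lacks since it is written with the base left out.
Oaz1 with stop: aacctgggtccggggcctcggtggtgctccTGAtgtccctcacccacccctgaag
Oaz1 joined: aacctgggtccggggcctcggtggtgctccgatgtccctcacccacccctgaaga

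Gene-level FPKM carry no information on how often the frame is shifted. The processed pseudogene Oaz1-ps (chromosome 17) matches the coding part at 683 of 685 aligned positions. It was listed at 19.03 and 13.55 FPKM with Ang II and at 14.37 and 83.91 FPKM with IL-33. With its FPKM added, unweighted by length, the sum was 421 and 251 with Ang II and 257 and 395 with IL-33. The difference became -0.01 (log2).

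Azin1 (chromosome 15, 38487427 to 38519266, minus strand), a relative of ornithine decarboxylase without its activity, stood at 24.4 and 8.22 FPKM with Ang II and at 11.3 and 11.7 FPKM with IL-33. Its Ang II values enclosed the IL-33 values, and the difference was 0.30 (log2, SE 1.05, adjusted p = 0.905 by limma).

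Ratios within a library do not depend on how that library was scaled. The Odc1 to Oaz1 ratio of FPKM was 0.623 and 1.40 with Ang II and 1.68 and 1.45 with IL-33, so both Ang II libraries lay below, the second only just. With the near copies of both genes added, a choice made after seeing the data, it was 0.646 and 1.45 with Ang II and 1.76 and 1.27 with IL-33, and the groups overlapped. The Odc1 to Azin1 ratio was 10.3 and 40.5 with Ang II and 36.3 and 38.8 with IL-33, and these overlapped. No test was run on the ratios.

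Amd1 (chromosome 10, 40287458 to 40302186, minus strand) showed the largest difference among the 9 members tested, by their own rows. With the FPKM of near copies added, that of Sms was larger (-3.53 in log2, against -3.41 for Amd1). This order rests on sums not weighted by length, and Sms-ps aligned over 1101 bases of a 3717-base Sms transcript. Amd1 stood at 0.15 and 0.29 FPKM with Ang II, against 18.1 and 20.3 FPKM with IL-33, which is 0.781% and 1.51% of the IL-33 mean. Both Ang II libraries were near 0, where log2(FPKM + 1) draws values together. Their small gap on that scale, from which the SE comes, therefore does not show close agreement. The difference was -4.05 (log2, SE 0.52, unadjusted p = 0.0206, adjusted p = 0.205 by limma), and 3.13% of tested genes had a lower one. In the 15 to 25 FPKM range of the IL-33 libraries, 159 of 854 genes (18.6%) were below 1 FPKM in both Ang II libraries, and 408 (47.8%) in at least 1 of them, again with limits set after the Amd1 values were seen.

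Amd2, a second gene on chromosome 10, is a near-identical copy of Amd1 and matches its coding part at 1004 of 1005 bases. The stretches, from base 751 to 840 of the Amd1 coding part, are shown with the only differing base in capitals.
Amd1: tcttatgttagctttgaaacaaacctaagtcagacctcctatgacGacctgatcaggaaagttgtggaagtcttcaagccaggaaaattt
Amd2: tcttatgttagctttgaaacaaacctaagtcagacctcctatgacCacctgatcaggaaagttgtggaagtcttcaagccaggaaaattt

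Amd2 was listed at 1.13 and 0.11 FPKM with Ang II and at 2.43 and 1.17 FPKM with IL-33. With the FPKM of all 8 copies added to Amd1, unweighted by length, the sum was 1.69 and 1.09 with Ang II and 23.5 and 24.8 with IL-33. Both Ang II libraries remained below both IL-33 libraries in this sum.

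Srm (chromosome 4, 148591503 to 148594993, plus strand) stood at 4.37 and 11.5 FPKM with Ang II, against 77.0 and 74.3 FPKM with IL-33. Both Ang II libraries were far below the IL-33 libraries, at 5.78% and 15.2% of their mean. The difference was -3.23 (log2, SE 0.89, adjusted p = 0.466 by limma). Of 362 genes between 60 and 90 FPKM in both IL-33 libraries, 18 (4.97%) were below 15 FPKM in both Ang II libraries, with limits set in the same way. The single near copy of Srm was listed at 0 in all 4 libraries.

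Sms (X chromosome, 157443855 to 157492287, minus strand) stood at 0.81 and 7.60 FPKM with Ang II, against 23.99 and 23.06 FPKM with IL-33. Both Ang II libraries were lower, and they differed by 2.25 (log2) from each other, the widest such gap among the members. The difference between groups was -2.64 (log2, SE 1.57, adjusted p = 0.775 by limma).

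The coding part of Sms cannot be told from that of its processed pseudogene Sms-ps (X chromosome, 62775585 to 62776685, minus strand). They are the same at 1101 of 1101 bases, as the first 90 coding bases of each show.
Sms: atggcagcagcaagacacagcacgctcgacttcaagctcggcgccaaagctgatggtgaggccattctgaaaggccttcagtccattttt
Sms-ps: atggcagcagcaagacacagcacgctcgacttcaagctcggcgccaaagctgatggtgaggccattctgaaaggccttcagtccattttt

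Sms-ps was listed at 0.04 and 5.75 FPKM with Ang II and at 35.4 and 34.4 FPKM with IL-33, above Sms itself in the IL-33 libraries. For Sms, 7 gene models were listed as near copies, 2 of which overlap at 1 locus and are at 0. With their FPKM added, unweighted by length, the sum was 0.850 and 13.4 with Ang II and 59.4 and 57.5 with IL-33. This sum is not the level of 1 gene. Gene and copy were lower together in both Ang II libraries. The split between them rests on the authors' assignment of fragments.

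**Figure D2:**
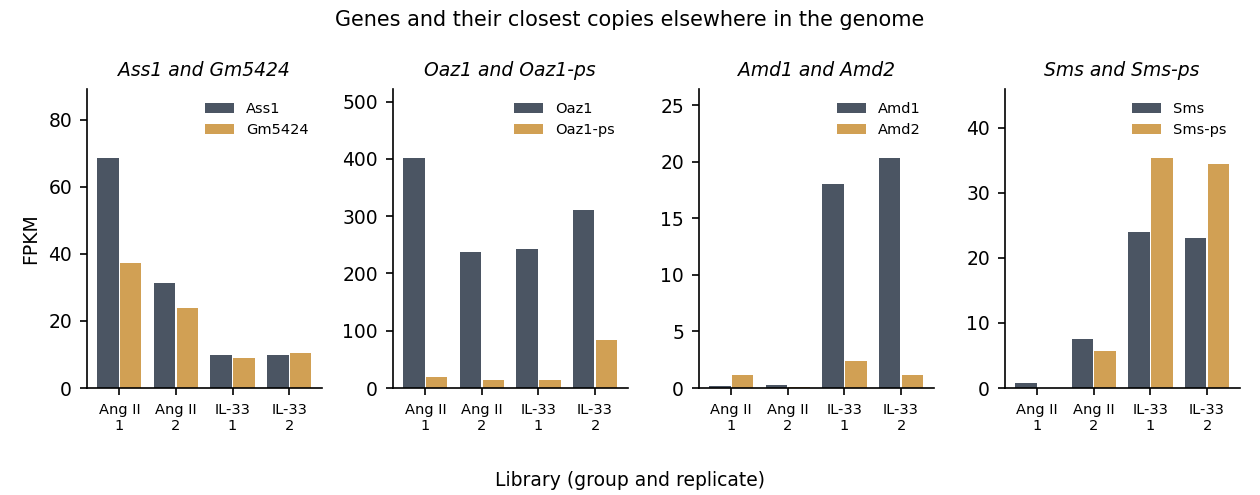
FPKM of Ass1, Oaz1, Amd1 and Sms (grey bars) and of the closest copy of each elsewhere in the genome (tan bars), 1 pair of bars per library, Ang II libraries left and IL-33 libraries right. Gm5424 moves with Ass1 and Sms-ps with Sms, while Amd2 stays at or under 2.43 FPKM and Oaz1-ps is high in 1 IL-33 library (83.9 FPKM).

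Srm, Sms and Amd1 together summed to 5.33 and 19.4 FPKM with Ang II, against 119 and 118 FPKM with IL-33. The Srm to Sms ratio was 5.40 and 1.51 with Ang II and 3.21 and 3.22 with IL-33, so the Ang II libraries enclosed the IL-33 values and the 2 synthases did not keep a fixed proportion.

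Sat1 (X chromosome, 155213132 to 155216449, minus strand) stood at 59.4 and 67.8 FPKM with Ang II and at 36.4 and 37.8 FPKM with IL-33. The groups did not overlap, and the Ang II libraries were 1.60-fold and 1.83-fold above the IL-33 mean. The difference was 0.76 (log2, SE 0.30, adjusted p = 0.630 by limma), and 34.0% of tested genes had a higher one. The ratio of Sat1 to Odc1, which sets the breakdown enzyme against the entry enzyme, was 0.237 and 0.204 with Ang II and 0.0889 and 0.0835 with IL-33. Both Ang II libraries were well above both IL-33 libraries in this ratio, which follows from Sat1 being higher and Odc1 lower in both.

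**Figure D3:**
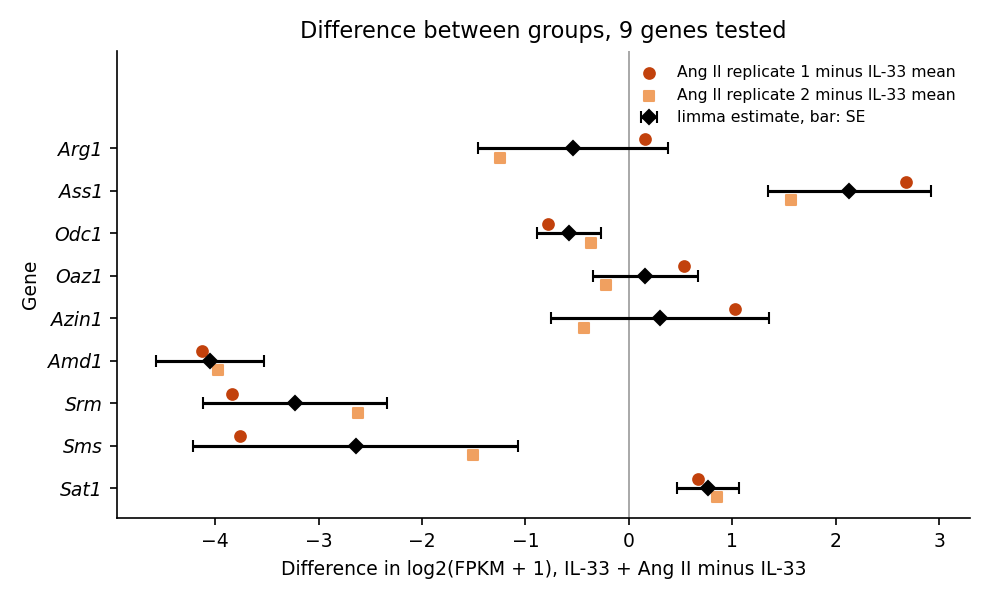
Difference in log2(FPKM + 1) between IL-33 plus Ang II and IL-33 for the 9 genes tested; diamonds are limma estimates with bars of 1 SE, circles and squares the separate Ang II libraries against the IL-33 mean. Amd1 (-4.05) and Sat1 (0.76) have Ang II libraries that lie close together, while those of Arg1, Oaz1 and Azin1 lie on either side of 0. For Amd1 both FPKM are near 0, where adding 1 draws the points together.

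Of the 10 members 9 passed the filter on low values, and 0 of these passed the adjusted threshold, against 0% of the 9215 genes tested. At an unadjusted p under 0.05 there was 1 member, Amd1, and 10.8% of tested genes were lower and 2.79% higher at that level. In both Ang II libraries 2 members (Ass1 and Sat1) were higher and 4 (Odc1, Amd1, Srm and Sms) lower. Of all tested genes, 24.4% were higher in both and 33.5% lower in both, so these counts alone do not set the members apart. The median log2 fold change of the members was -0.54, against 0.00 for all tested genes, and it was 0.16 in the first Ang II library and -0.43 in the second. The median thus differed in sign between the Ang II libraries. Counting both IL-33 libraries as replicates, limma called 1 member, Amd1 (adjusted p = 0.00618), together with 11.8% of tested genes as lower and 4.96% as higher. All 10 members made up 0.331% and 0.233% of the FPKM sum with Ang II and 0.316% and 0.344% with IL-33, and Arg1, Odc1 and Oaz1 held 86.3% to 88.8% of it in every library.

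Promoters were read after the values had been seen, with some members higher and others lower in both Ang II libraries. None of these differences passed the adjusted threshold, and a link between promoter and direction was not tested. RefSeq windows (GRCm38.p6) were found for 6 of the 10 members, with 7 start sites. The E-box CACGTG, a palindrome bound by Myc and related factors, stood in the 250 bases before the start in 2 of these windows, that of Ass1 and 1 of the 2 of Sms, and in 6.02% of all 32851 windows of this length. Below are both windows, 5′ to 3′ on the gene's strand, with the E-box in capitals, 36 bases before the start in Ass1 (chr2:31470020-31470269, plus strand; the RefSeq start, 31470270, lies inside the GENCODE gene given above, as does the E-box) and 196 bases in Sms (chrX:157492288-157492537, minus strand).
Ass1: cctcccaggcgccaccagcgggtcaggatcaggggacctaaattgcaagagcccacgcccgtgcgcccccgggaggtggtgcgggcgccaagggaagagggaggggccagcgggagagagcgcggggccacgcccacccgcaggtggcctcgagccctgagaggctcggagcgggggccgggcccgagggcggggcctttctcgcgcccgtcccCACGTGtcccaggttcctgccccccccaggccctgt
Sms: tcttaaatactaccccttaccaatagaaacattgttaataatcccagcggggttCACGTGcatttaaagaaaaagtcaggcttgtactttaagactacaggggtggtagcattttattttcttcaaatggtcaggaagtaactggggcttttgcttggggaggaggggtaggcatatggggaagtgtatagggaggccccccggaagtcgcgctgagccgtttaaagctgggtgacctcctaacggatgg

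Other motifs were searched on both strands in the same windows. TGACG, the core of cAMP response elements, stood in 3 of 7 member windows (Amd1, Oaz1 and Odc1) and in 17.8% of all. GGGCGG, the Sp1 letters, stood in 5 of 7 and in 32.7% of all, and TATAA in 1 of 7 (Amd1) and in 22.8% of all. A match is a description of these letters and not of binding.

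The wider list of arginine, polyamine, methionine and hypusine metabolism held 57 names, of which 56 were in the table, 17 were listed at 0 in all 4 libraries and 26 passed the filter. None of the 26 passed the adjusted threshold, and 6 had an unadjusted p under 0.05, as had 13.6% of all tested genes. In both Ang II libraries 5 were higher and 12 lower, beside 24.4% higher and 33.5% lower among all tested genes, with a median log2 fold change of -1.00, against 0.00 for all tested genes. Taken alone, the first Ang II library gave -0.63 and the second -0.35.

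Among genes of polyamine turnover, Smox, which encodes spermine oxidase, was abundant and lower with Ang II, at 129 and 75.7 FPKM, against 220 FPKM in both IL-33 libraries (a difference of -1.15 in log2, SE 0.53, limma adjusted p = 0.707). Oaz2, a second antizyme, stood at 0.14 and 4.88 FPKM with Ang II and at 13.9 and 13.1 FPKM with IL-33. All 3 tested genes of this group were lower in both Ang II libraries, beside 33.5% of all tested genes. The remaining one was Amd2, a low gene, at 1.13 and 0.11 FPKM with Ang II and at 2.43 and 1.17 FPKM with IL-33. Of the transport genes 2 were tested and both overlapped between groups. They were Slc3a2, the shared heavy chain of several amino acid transporters (491 and 259 FPKM with Ang II, 353 and 356 FPKM with IL-33), and Atp13a3, which is known for polyamine uptake (3.02 and 0.14 FPKM with Ang II, 0.70 and 1.64 FPKM with IL-33).

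Spermidine is used to make hypusine, a modified lysine in the translation factor eIF5A. Eif5a was abundant and overlapped between groups, at 794 and 612 FPKM with Ang II and at 729 and 717 FPKM with IL-33. Dhps, which encodes the first hypusine enzyme, stood at 25.8 and 12.7 FPKM with Ang II and at 0 in each IL-33 library, so no fold is given.

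Genes of the methionine cycle and of methylthioadenosine salvage, which recycles the by-product of Srm and Sms, were the group with the lowest median, -2.79 over 9 tested genes, where 1 gene was higher and 6 were lower in both Ang II libraries, beside 24.4% higher and 33.5% lower among all tested genes. Apip stood at 0 FPKM in both Ang II libraries and at 24.4 and 22.4 FPKM with IL-33, and Adi1 at 0.15 and 0.09 FPKM with Ang II and at 20.4 and 20.3 FPKM with IL-33. Both encode salvage enzymes. Mtap, which encodes the enzyme that cleaves methylthioadenosine, stood at 0.07 and 10.5 FPKM with Ang II and at 30.2 and 28.4 FPKM with IL-33. Ahcy, which encodes the hydrolase of S-adenosylhomocysteine, stood at 1.94 and 2.28 FPKM with Ang II and at 17.5 and 17.2 FPKM with IL-33 (a difference of -2.56 in log2, SE 0.66, limma adjusted p = 0.440). Each of these was lower in both Ang II libraries.

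In this same group the Ang II libraries disagreed most, with a median absolute difference of 3.43 (log2) between them. Mat2a, the catalytic subunit of the enzyme that makes S-adenosylmethionine, stood at 0.13 and 37.8 FPKM with Ang II and at 31.96 and 32.62 FPKM with IL-33. Mat2b, its regulatory partner, stood at 0.09 and 46.7 FPKM with Ang II and at 49.5 and 48.5 FPKM with IL-33. Enoph1, another salvage gene, stood at 30.2 and 0.11 FPKM with Ang II and at 0 in each IL-33 library. Mat2a and Mat2b were thus near 0 in the first Ang II library and near the IL-33 level in the second, and Enoph1, the 1 gene of this group above both IL-33 values in both, was far higher in the first than in the second.

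Of arginine uptake genes, Slc7a1, the main cationic amino acid transporter of many cells, stood at 3.63 and 1.67 FPKM with Ang II and at 0.04 and 0 FPKM with IL-33. Slc7a6 overlapped between groups (0.06 and 14.2 FPKM with Ang II, 3.04 and 3.56 FPKM with IL-33). Nos2, which encodes the nitric oxide synthase that competes with arginase for arginine, did not reach 1 FPKM in any library, its highest value being 0.99 FPKM in 1 Ang II library. In the urea cycle group Asl was the only gene tested, and Otc, Cps1, Nags, Slc25a15 and Slc25a2 were listed at 0 in all 4 libraries. Ddah2, a gene of methylarginine breakdown, stood at 0.45 and 0.27 FPKM with Ang II and at 0.24 and 0.05 FPKM with IL-33, under the filter.

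Ornithine can also leave toward proline and glutamate. Oat, which encodes ornithine aminotransferase, was higher in both Ang II libraries, at 109 and 101 FPKM, against 69.4 and 67.1 FPKM with IL-33 (a difference of 0.61 in log2, SE 0.24, limma adjusted p = 0.628). Aldh18a1, which makes the same intermediate from glutamate, was lower in both, at 40.6 and 16.0 FPKM, against 56.3 and 58.4 FPKM with IL-33. Oat and Aldh18a1 thus lay on opposite sides of the IL-33 values.

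**Figure D4:**
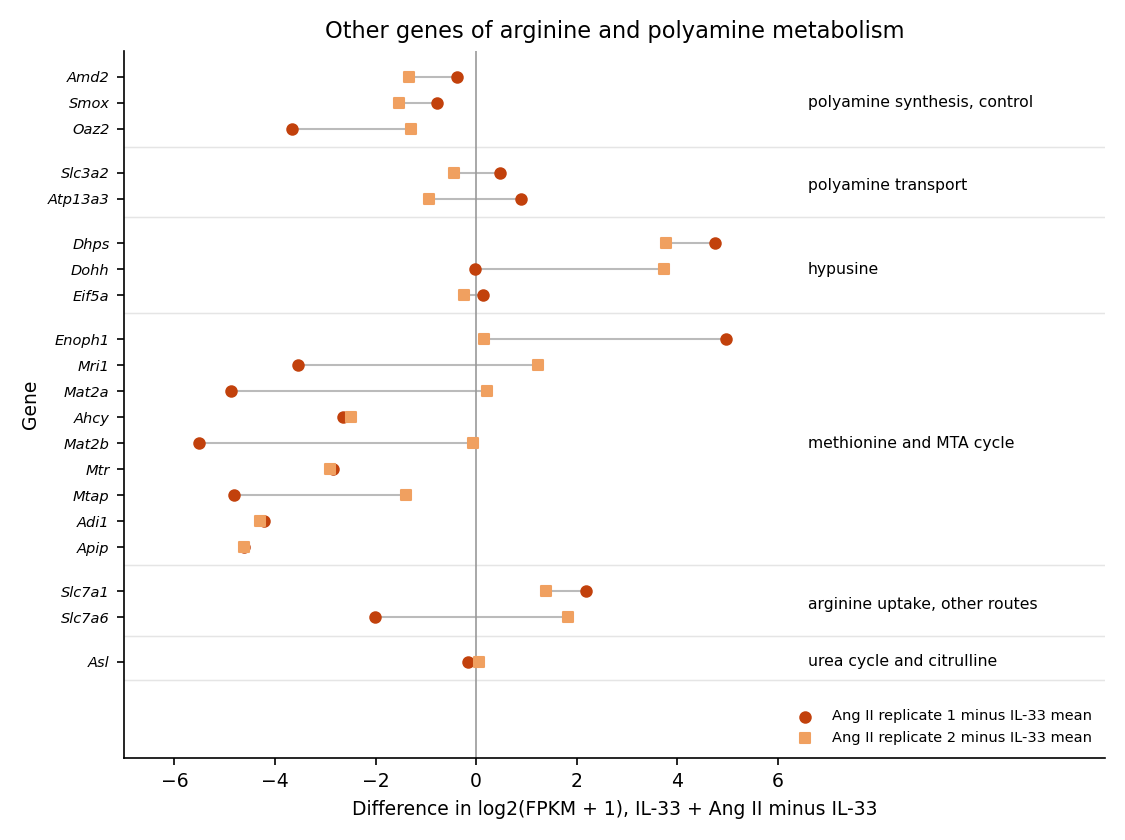
Difference in log2(FPKM + 1) of each Ang II library against the IL-33 mean for tested pathway genes that are not among the 10 members, by group (MTA, methylthioadenosine; the genes from ornithine to proline and glutamate are not drawn); circles are replicate 1, squares replicate 2, and grey lines join them. Long lines in the methionine group (median gap 3.43) mark genes for which the Ang II libraries disagree.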

How the data were processed

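FPKM per gene were deposited by the authors with 2 decimals, per the file headers. HISAT, StringTie, edgeR and the mm10 build are named, per the submitters' processing notes, without version or role; the annotation is not given in the sources used here. The labels' protocols describe SMARTer cDNA amplified by PCR, enzymatic fragmentation and Illumina sequencing in pairs, and name no molecular identifiers. Depth per sample is unknown, and amplification from few cells can drop a transcript from a library.

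Columns were matched to samples by name. The 9215 genes averaging 1 FPKM or more over the 2 Ang II columns and the IL-33 mean were tested on log2(FPKM + 1) with limma 3.58.1 (R 4.3.3; lmFit, eBayes with trend), two-sided, with Benjamini-Hochberg adjustment over all of them, a threshold of 0.05 and 1 residual degree of freedom. The fit was tested on simulated data with a far smaller spread between libraries than the Ang II pair has. It therefore does not show how the fit performs on these libraries. Copies were sought with BLAST+ 2.17.0 (at least 90% identity over 200 bases) in GENCODE M21 (GRCm38, the assembly of mm10; 55141 of 55401 identifiers matched), which also gave coordinates; promoters are from RefSeq.

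Named pathway genes were the 2 most abundant of each group and those averaging 5 FPKM or more without overlap between groups; Nos2 and the urea cycle genes at 0 were named after their values were seen. A gene that the rule also takes is not reported here, though the counts include it. For each marker list the 2 most abundant genes were to be named. Areg, Marco and Adgre1 were named after their values were seen. Members and lists were chosen with earlier results of these data known. Alternatives covered pseudocount, filter, scaling, replicates and copies.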

Additional observations from a re-analysis of the deposited data

How the results depend on the processing

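Ass1, Odc1, Srm, Sms, Sat1 and Amd1 kept their direction under all 14 alternatives. For each of them, both Ang II values lay on the same side of both IL-33 values. Leaving out a library or changing pseudocount, filter or replicates therefore could not turn the sign. Only the scaling and the added copies could have done so. The log2 fold change ran from 1.57 to 2.68 for Ass1, from -0.78 to -0.37 for Odc1, from -3.84 to -2.62 for Srm, from -3.76 to -1.51 for Sms, from 0.67 to 0.85 for Sat1 and from -5.95 to -3.41 for Amd1. With both IL-33 libraries as replicates, 1547 genes and 1 member (Amd1, -4.05) passed the adjusted threshold. Adjusted p for Amd1 lay between 0.00618 and 0.381 over the alternatives with a test. With the replicate number as a block beside that setting, 0 genes and 0 members passed. Deviations of same-numbered libraries correlated at -0.02 across 9215 genes. Since the IL-33 libraries hardly deviate, this cannot show whether the numbers pair the samples, and the labels do not say so. Oaz1 turned to -0.01 with its copy added, a choice made after seeing the data. Leaving out single libraries gave Arg1 between -1.25 (without Ang II replicate 1) and 0.16 (without Ang II replicate 2), Azin1 between -0.43 (without Ang II replicate 1) and 1.03 (without Ang II replicate 2) and Oaz1 to between -0.22 and 0.53. In the same runs the members higher numbered 2 to 5, those lower 4 to 7, and the median of the members ran from -0.56 to 0.16. Of all tested genes, 26.5% to 45.7% were higher and 34.9% to 46.6% lower in these runs, where the rule is looser. For the pathway genes, the number higher ran from 5 to 10, the number lower from 12 to 17 and the median from -1.13 to -0.35. That median was -0.02 with no minimum level, and a minimum mean of 5 FPKM left 3 pathway genes higher, beside 28.2% of all tested genes. The cause of these changes was not tested. The unknown depth limits what can be read from values near 0.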
